A study of Danio rerio with 5 samples.

Results

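The osteoblasts were 121 of 13786 kept cells from 2 single-cell libraries of zebrafish larvae at 5 days post fertilization. A cell was kept with at least 500 genes detected and at most 10% of its unique molecular identifiers (UMIs) from 13 mitochondrial genes. It was called an osteoblast with a UMI of at least 3 of 7 marker genes (sp7, runx2b, col10a1a, spp1, bglap, entpd5a and ifitm5) and fewer than 2 UMIs of the cartilage gene matn1. The larvae carried Tg(pdgfrb:egfp)ncv22, and EGFP-positive cells were sorted by flow cytometry, so every cell in both libraries had passed a gate on a pdgfrb reporter. The other 3 samples are bulk libraries of citrine-positive cells sorted at the same age from larvae with Tg(pdgfrb:citrine)s1010 and the allele um148, which the strain label writes as pdgfb um148. Wild-type larvae enter only through the comparison in the authors' deposited table. Nothing in the labels says whether the samples came from separate clutches, so spread between them may be technical.

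Osteoblasts are the cells that build bone. They secrete a matrix of collagen and acidic phosphoproteins, then mineralize it with calcium phosphate, using enzymes that raise phosphate and remove the mineral inhibitor pyrophosphate. Runx2 and the zinc finger factor Sp7 drive their differentiation. In zebrafish larvae much of the early bone of the head and fin girdle forms directly in mesenchyme, without a cartilage template.

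Library 1 gave 51 osteoblasts of 5935 kept cells, or 0.859% (exact Clopper-Pearson 95% interval 0.640% to 1.13%). Library 2 gave 70 of 7851, or 0.892% (0.696% to 1.13%). The mean share was 0.875% ± 0.0228 (SD, n = 2 libraries). These and all later intervals cover counting error only. Osteoblasts had a median of 8150 and 10817 UMIs in libraries 1 and 2, against 5817.5 and 6307 UMIs in the other kept cells. Their median mitochondrial share was 2.68% and 2.74%, against 3.34% and 3.47% in the others. Of the kept cells, 11 barcode sequences occurred in both libraries, and 0 of these were osteoblasts. The 3 um148 libraries summed to between 16997792 and 21231786 normalized counts over 17540 genes.

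The values of the 7 rule genes chose the cells, so they are given as a description and do not test the label. Type X collagen gene col10a1a, which in zebrafish is made by osteoblasts early in bone formation, reached 22050.4 and 27772 CPM (the UMIs of a gene over all UMIs of the summed cells, at the usual scale of this unit), against 4.30 and 5.30 CPM in the other kept cells. The osteoblasts held 98.9% and 98.7% of all its UMIs in kept cells. Ifitm5, a membrane protein of bone-forming cells, stood at 1621 and 2014 CPM, against 0.328 and 0.566 CPM in the others. Spp1, the mineral-binding phosphoprotein osteopontin, had 499 and 914 CPM, against 4.29 and 9.95 CPM. Entpd5a, an ectonucleotidase that larval bone needs to mineralize, had 276 and 267 CPM, against 1.1004 and 2.24 CPM. The transcription factor genes were far lower: sp7 had 35.4 and 39.2 CPM, against 1.33 and 1.15 CPM, and runx2b had 13.3 and 25.8 CPM, against 2.61 and 2.47 CPM. Bglap, the osteocalcin gene of mature osteoblasts, was not detected. It had 0 UMIs in 51 and in 70 osteoblasts, which at a limit of 3 cells allows a share of cells with a UMI of up to 5.88% and 4.29%, and 4 and 0 UMIs in the other cells. The similarly named gene bglapl, outside the rule, had 0 UMIs in osteoblasts of library 1. In library 2 it had 30 UMIs in 4 osteoblasts, and the highest cell held 23 of them. The other cells had 30 and 88 UMIs of bglapl.

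To see how far the markers meet without using the marker itself, each was counted in the cells that met the rule by at least 3 of the other 6. Col10a1a was then found in 97.5% of 40 cells and 94.2% of 52, against 2.56% and 2.08% of the rest. Ifitm5 was found in 95.1% of 41 cells and 89.1% of 55, against 0.458% and 0.705% of the rest. Spp1 followed with 86.0% and 84.9%, and entpd5a with 72.3% and 63.6%. Sp7 was found in 40.8% and 29.9% of such cells, and runx2b in 10 of 50 and 18 of 67. Neurons, defined by neuronal genes and not thought to express these markers, gave a level of background: 1.96% and 2.13% of 510 and 752 neurons had a UMI of col10a1a and 0.392% and 0.399% had one of sp7. Neurons were shallower, with medians of 3441 and 3644.5 UMIs.

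Just inside the threshold, the 12 and 20 osteoblasts with exactly 3 markers held a median of 79.5 and 159 UMIs of col10a1a. Just outside it, the 36 and 43 cells with exactly 2 markers held a median of 0 and 0. Col10a1a is itself counted by the rule, so this is a description. Panx3, which the rule did not use, had a UMI in 83.3% and 55.0% of the cells with 3 markers and in 2.78% and 2.33% of the cells with 2. Median depth was 5181 and 7079 UMIs with 3 markers, and 7284 and 8956 UMIs with 2.

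Few genes stood far above the other sorted cells in osteoblasts. A gene was called enriched at 4-fold or more over all other kept cells, at 20 CPM or more and with a UMI in 10% or more of osteoblasts, each in both libraries. Of 3073 genes that met the level and detection minimums, 65 were enriched (2.12%), 5 of them rule genes; runx2b missed the level. Of the 65, 17 stood at 100-fold or more and 43 at 10-fold or more in both libraries. The other 22 were under 10-fold in at least 1 library, and some were common elsewhere, such as tnmd at 65.4 and 86.1 CPM in the other cells. Together the 65 genes made up 4.18% and 5.30% of osteoblast UMIs, against 0.0518% and 0.0582% in the other cells. The rule gene col10a1a, at 22050.4 and 27772 CPM, was the largest part of this share. Since the same cells were chosen by their transcripts, these contrasts carry no test.

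**Figure D1:**
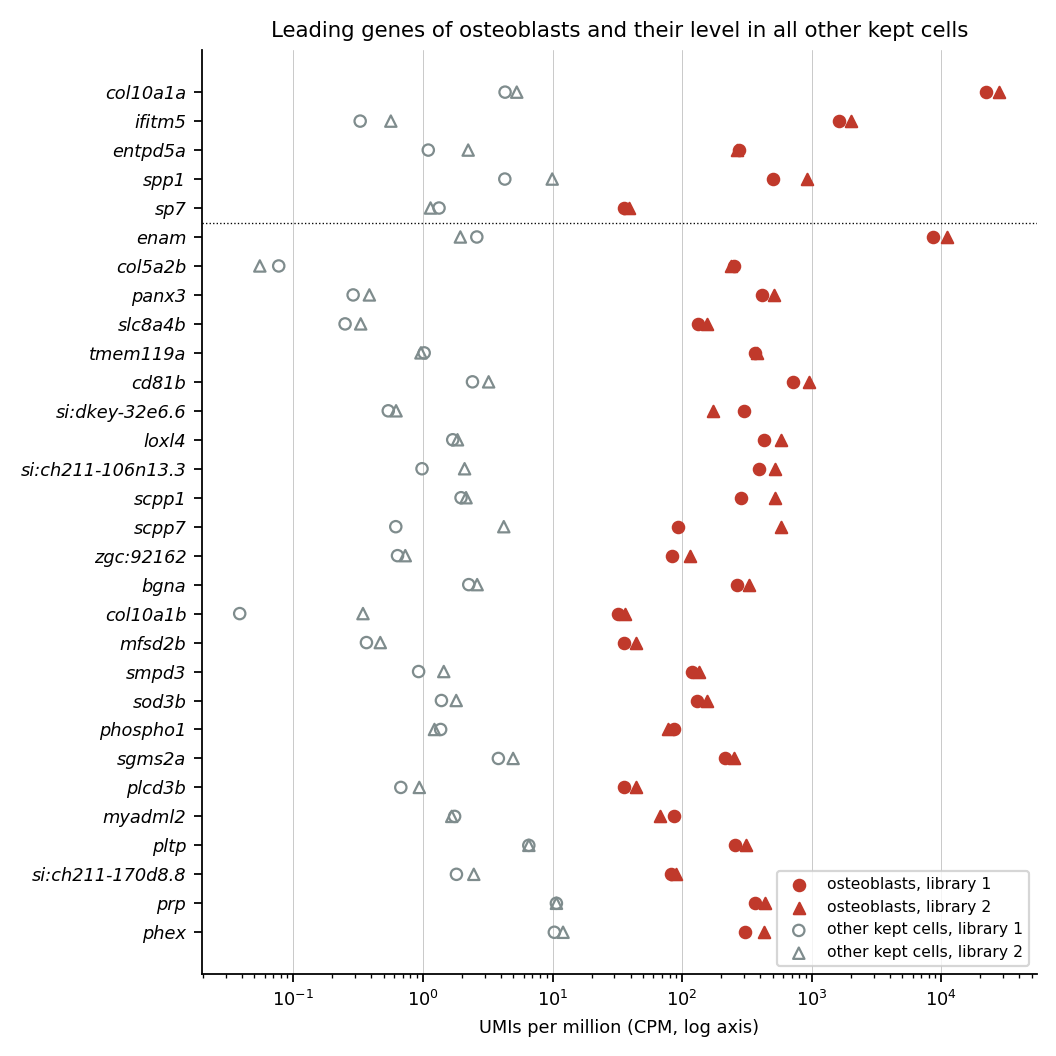
Levels of the 5 enriched rule genes (above the dotted line) and of the 25 other enriched genes with the highest smaller fold, in CPM on a log axis. Filled symbols are summed osteoblasts and open symbols all other kept cells, circles for library 1 and triangles for library 2; the osteoblast symbols lie to the right of the open symbols for every gene, and col10a1a at 22050.4 and 27772 CPM is the highest.

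Among matrix genes, enam encodes enamelin, a secreted phosphoprotein that in mammals shapes tooth enamel. It had 8577 and 11121 CPM in osteoblasts, against 2.61 and 1.95 CPM in the other cells, and a UMI in 76.5% and 77.1% of osteoblasts. Its relatives in the secretory calcium-binding phosphoprotein family showed lower levels: scpp1 had 285 and 522 CPM, against 1.97 and 2.15 CPM. Scpp7 had 93.0 and 582 CPM, against 0.618 and 4.21 CPM, but only 10 and 12 osteoblasts had a UMI of it. In library 2 the 2 highest cells held 451 of its 608 UMIs in osteoblasts. Another member, scpp5, had 2.21 and 12.4 CPM and did not meet the level.

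Of 23 fibrillar and bone collagen genes listed, 21 had a UMI in 5% or more of osteoblasts in both libraries, 2 were enriched and 5 were at 2-fold or more; over all 8345 genes detected this way, 4.22% were at 2-fold or more and 4.71% at 0.5-fold or less. Col5a2b, a type V collagen chain, had 252 and 239 CPM in osteoblasts, against 0.0772 and 0.0552 CPM in the other cells, where it was seen in 4 UMIs per library. The second type X gene, col10a1b, had 32.1 and 36.4 CPM, against 0.0386 and 0.345 CPM. With 2 UMIs in the other cells of library 1, its ratio there had a counting interval of 210 to 7193. The highest osteoblast of that library held 18 of the 29 UMIs, found in 9 osteoblasts. The interval does not cover such spread between cells. Col11a1b followed at 337 and 408 CPM, against 94.0 and 98.5 CPM. The genes of type I collagen, the main collagen of bone, were abundant in both sets of cells. Col1a1a stood at 4346 and 3631 CPM, against 3018 and 3186 CPM. Its direction turned without a group of osteoblasts that carried epidermis transcripts (5 or more of 9 epidermis markers): it then had 2290.4 and 2513 CPM, below the other cells. Col1a2 stood at 2993 and 2518 CPM, against 1254 and 1273 CPM. The type VI gene col6a1 was at 87.5 and 95.7 CPM, against 252 and 251 CPM. The median fold of the detected genes of the list was 1.16 and 0.836, against 0.927 and 0.932 over all genes detected.

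Among 33 noncollagenous matrix genes in the files, 22 were detected in this sense, 3 were enriched, 5 were at 2-fold or more and 6 at 0.5-fold or less. Of the 5, kera had UMIs only in the osteoblasts that carried epidermis transcripts, at 105 and 133 CPM there. Biglycan gene bgna had 267 and 331 CPM, against 2.26 and 2.62 CPM, while its paralogue bgnb had 44.3 and 36.4 CPM, against 43.1 and 42.9 CPM. Sparc, or osteonectin, was abundant on both sides with 5894 and 5627 CPM in osteoblasts, against 2297 and 2402 CPM. Decorin and lumican, small proteoglycans of loose connective tissue, were lower: dcn had 70.9 and 91.8 CPM, against 224 and 240.1 CPM, and lum had 38.8 and 33.5 CPM, against 91.5 and 101 CPM. Mgp, an inhibitor of calcification, had 1 and 0 UMIs in osteoblasts and was near absent from the other cells too, at 1.54 and 0.497 CPM.

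Of 29 mineralization genes, 19 were detected, with a median fold of 2.22 and 2.01; 4 were enriched and 9 at 2-fold or more. Phospho1, a phosphatase of matrix vesicles, had 86.4 and 78.5 CPM, against 1.37 and 1.23 CPM. Smpd3, a sphingomyelinase whose loss makes mouse bone brittle, had 120 and 134 CPM, against 0.927 and 1.45 CPM. Sgms2a, a sphingomyelin synthase that was not on the list, was enriched too, with 213 and 254 CPM, against 3.82 and 4.97 CPM. Panx3, a pannexin channel, had 416 and 510 CPM, against 0.290 and 0.386 CPM. Slc8a4b, of the sodium-calcium exchanger family and also not on the list, had 133 and 157 CPM, against 0.251 and 0.331 CPM. Enpp1, which makes pyrophosphate, stood at 56.5 and 78.4 CPM, against 20.04 and 17.2 CPM. Alpl, the tissue-nonspecific alkaline phosphatase often used to stain osteoblasts, went the other way: it had 3 and 11 UMIs in osteoblasts, or 3.32 and 10.5 CPM, against 19.1 and 21.7 CPM. Without the osteoblasts that carried epidermis transcripts it had 3.02 and 21.2 CPM, so in library 2 it was then close to the other cells.

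Genes of phosphate balance were present in unequal ways. Phex, an endopeptidase mutated in human X-linked hypophosphatemia, had 308 and 428 CPM, against 10.3 and 12.1 CPM, and a UMI in 86.3% and 88.6% of osteoblasts, against 2.55% and 2.26% of neurons. Fgf23, the hormone by which bone lowers blood phosphate in mammals, had 33 UMIs in 3 osteoblasts of library 1 and 60 UMIs in 4 osteoblasts of library 2. It had 0 UMIs in all 5884 and 7781 other kept cells. With that 0 set to 3 UMIs over the other cells of a library, fgf23 was at least 631-fold and 1387-fold higher in osteoblasts; its detection in 5.88% and 5.71% of them kept it below the minimum for an enriched gene.

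**Figure D2:**
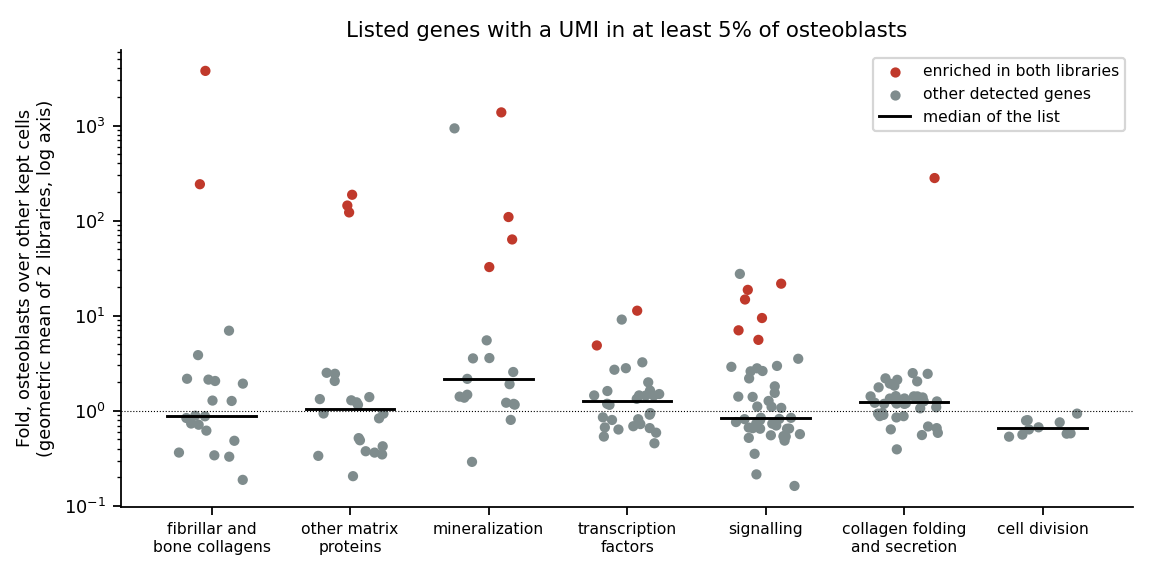
Fold of osteoblasts over other kept cells (geometric mean of both libraries, log axis) for listed genes with a UMI in at least 5% of osteoblasts in both libraries, by list. Red points are enriched genes, grey points the other detected genes and bars the list medians; the highest grey point is fgf23, whose fold is a lower bound, and the median of the mineralization list is 2.22 and 2.01 by library.

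Of 42 transcription factor genes listed, 30 were detected, 2 were enriched, 6 were at 2-fold or more and 0 at 0.5-fold or less in both libraries, with a median fold of 1.25 and 1.20. Runx3, a relative of Runx2, had 78.6 and 67.0 CPM, against 6.25 and 6.595 CPM. Mef2cb, a MADS-box factor, had 109 and 79.4 CPM, against 19.9 and 18.3 CPM. Cbfb, the partner of Runx proteins, had 33.2 and 54.5 CPM, against 12.6 and 13.8 CPM, and the homeobox gene dlx5a had 45.4 and 53.6 CPM, against 24.5 and 25.02 CPM. Runx2a, the second Runx2 gene, had 0 and 3 UMIs in osteoblasts.

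Signalling genes held 72 listed, 46 detected, 6 enriched, 14 at 2-fold or more and 3 at 0.5-fold or less. Among ligands, bmp8a had 81.9 and 106 CPM, against 3.69 and 4.99 CPM, and bmp2a had 53.2 and 36.4 CPM, against 10.3 and 6.04 CPM; both belong to the bone morphogenetic proteins. Indian hedgehog gene ihha had 39.9 and 43.0 CPM, against 1.78 and 2.76 CPM. Wnt10a had 49.8 and 79.4 CPM, against 8.90 and 9.01 CPM. Among inhibitors, wif1, which binds Wnt ligands, had 103 and 216 CPM, against 13.6 and 18.3 CPM, whereas sost, the sclerostin gene of mammalian osteocytes, had 23.3 and 32.5 CPM, against 103 and 104 CPM, in 3.92% and 8.57% of osteoblasts.

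Among receptors, tnfrsf11a encodes RANK, which on osteoclast precursors receives the signal to make bone-resorbing cells. It had 126 and 145 CPM in osteoblasts, against 9.02 and 9.27 CPM in the others, and a UMI in 84.3% and 78.6% of osteoblasts. Its ligand gene tnfsf11 had 1 and 3 UMIs there. Of 11 osteoclast and macrophage genes in the files, 7 had 0 UMIs in all osteoblasts, among them acp5a, csf1ra, mpeg1.1 and dcstamp, and spi1b and coro1a had at most 1 UMI per library. Ctsk, the protease cathepsin K, had 55.4 and 63.1 CPM in osteoblasts, against 49.0 and 53.9 CPM in the others. Fgfr3 had 199 and 201 CPM, against 66.4 and 68.5 CPM. Pth1ra, a parathyroid hormone receptor, had 7.75 and 17.2 CPM, against 0.386 and 0.455 CPM. Pdgfrb, the gene whose reporter drove the sort, had 22.1 and 41.1 CPM in osteoblasts, against 54.5 and 56.9 CPM, and a UMI in 21.6% and 38.6% of osteoblasts, against 7.25% and 6.78% of neurons. Chemokine gene cxcl12a had 83.1 and 77.5 CPM, against 479 and 511 CPM.

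Collagen folding and secretion genes were close to the other cells in level, with 41 detected of 49, 4 at 2-fold or more and a median fold of 1.31 and 1.18. The exception was loxl4, a lysyl oxidase-like enzyme of the family that cross-links collagen. It had 431 and 575 CPM, against 1.70 and 1.85 CPM. Its relatives loxa and loxl1 had 0 and 5 UMIs and 1 and 3 UMIs in osteoblasts. Plod2, which hydroxylates collagen lysines at cross-link sites, had 66.4 and 64.1 CPM, against 28.7 and 24.8 CPM.

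Other enriched genes had less settled places in bone. Tmem119a, whose mouse relative promotes osteoblast differentiation, had 367 and 377 CPM, against 1.02 and 0.966 CPM. The tetraspanin gene cd81b had 723 and 953 CPM, against 2.41 and 3.21 CPM. Extracellular superoxide dismutase gene sod3b had 131 and 156 CPM, against 1.39 and 1.81 CPM, and the phospholipid transfer protein gene pltp had 257 and 309 CPM, against 6.56 and 6.57 CPM. Mfsd2b, a lipid transporter, had 35.4 and 44.0 CPM, against 0.367 and 0.469 CPM. Ano5a, whose human relative is mutated in a bone dysplasia, had 178 and 183 CPM, against 6.33 and 6.25 CPM. Abcc6a, whose human relative is mutated in a disease of ectopic calcification, had 32.1 and 65.1 CPM, against 1.08 and 1.60 CPM. Several high genes have no name beyond a locus tag, such as si:ch211-106n13.3 at 394 and 524 CPM, against 0.985 and 2.10 CPM, and si:dkey-32e6.6 at 301 and 173 CPM, against 0.541 and 0.621 CPM.

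The nearest skeletal cells were chondrocytes (233 and 300 cells with at least 2 UMIs of matn1 and a UMI of at least 3 cartilage genes) and tenocytes (83 and 152 cells with fewer than 2 UMIs of matn1 and a UMI of at least 3 tendon genes). Of the 65 enriched genes, 55 were also at 4-fold or more over chondrocytes, 57 over tenocytes and 50 over both. The genes not set apart from chondrocytes included ihha, with 39.9 and 43.0 CPM in osteoblasts, against 16.3 and 30.6 CPM in chondrocytes. They also included tnfrsf11a at 126 and 145 CPM, against 39.8 and 53.8 CPM, and the collagen receptor integrin gene itga10 at 145 and 160 CPM, against 67.1 and 74.2 CPM. Chst11, a chondroitin sulfotransferase gene, was level, with 78.6 and 115 CPM in osteoblasts, against 80.0 and 90.0 CPM in chondrocytes.

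A pair of tendon genes was shared with tenocytes. Tnmd, the tenomodulin gene, had 339 and 422 CPM in osteoblasts, against 458 and 543 CPM in tenocytes and 65.4 and 86.1 CPM in all other kept cells. Scxa, a transcription factor of tendon progenitors, had 64.2 and 120 CPM in osteoblasts, against 98.5 and 95.1 CPM in tenocytes. Both genes helped to define the tenocytes. A UMI of tnmd was in 76.5% and 71.4% of osteoblasts, against 3.14% and 2.93% of neurons. Other tendon markers varied. Of 12 in the list, 9 had a UMI in 5% or more of osteoblasts in both libraries, 2 were at 2-fold or more (tnmd and scxa) and 2 at 0.5-fold or less. Thbs4b had 18.8 and 34.4 CPM in osteoblasts, against 60.8 and 74.6 CPM in the other cells, fmoda had 21.0 and 32.5 CPM, against 115 and 141 CPM, and scxb and mkxb had 0 UMIs. By the tenocyte rule alone, 7 and 10 of the osteoblasts would have been tenocytes.

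A group of the osteoblasts carried transcripts of epidermis. With a UMI of at least 5 of 9 epidermis markers (krt4, krt5, krt91, cyt1, cyt1l, epcam, tp63, cldni and cldne), 13 of 51 and 20 of 70 osteoblasts qualified, 25.5% and 28.6%, against 11.7% and 11.3% of the other kept cells. In these 33 cells the 9 markers summed to between 9287 and 78538 CPM in library 1 and between 6530 and 60069 CPM in library 2. In the other 88 they reached at most 1415 and 2699 CPM, so the groups did not overlap in either library. The split used these genes, so this is a description of it. The 33 cells were also deep, with medians of 41124 and 26928 UMIs, against 6550.5 and 7887 UMIs in the other 88. They therefore supplied 63.4% and 54.9% of all osteoblast UMIs. Other kept cells with 5 or more of the markers were deep too. Their medians were 16287.5 and 18180 UMIs, against 5316 and 5764.5 UMIs in other kept cells with fewer. Summed over all osteoblasts, the 9 markers stood at 23060 and 18808 CPM, against 9385 and 9592 CPM in the other kept cells, with 8 of the 9 detected in 5% of osteoblasts and cldne near 0 at 1.11 and 1.91 CPM. Fin fold genes and1 and and2, which encode actinodins of the larval fin fold, moved with them: and1 had 1459 and 1564 CPM in the osteoblasts with epidermis genes, against 15.1 and 8.48 CPM in those without.

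**Figure D3:**
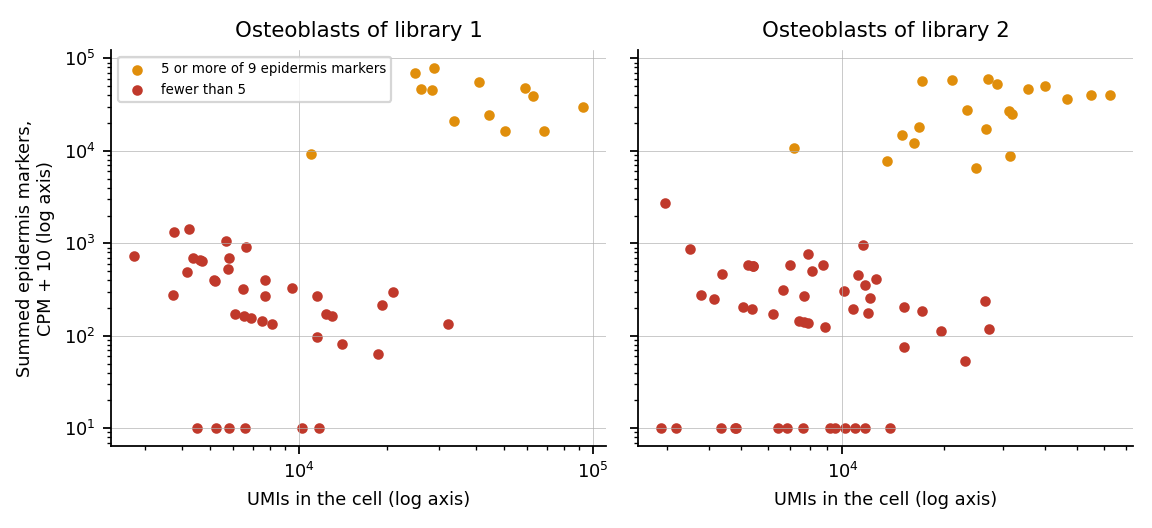
Summed CPM of the 9 epidermis markers (10 CPM added, log axis) against UMIs in the cell (log axis), 1 point per osteoblast, library 1 left and library 2 right. The 33 orange cells with 5 or more of the markers sit above the 88 red cells in both libraries and mostly to their right, at a median of 41124 and 26928 UMIs.

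The bone genes were present on both sides of this split. The rule required at least 3 bone markers of every osteoblast, so for col10a1a this is a description. Enam, which the rule did not use, had a UMI in 12 of 13 and 15 of 20 osteoblasts with epidermis genes. Without them it had one in 27 of 38 and 39 of 50. Col10a1a was found in all 13 and in 19 of 20 osteoblasts with epidermis genes, with a median of 464 and 238.5 UMIs per cell, and in 37 of 38 and 48 of 50 without, with a median of 302 and 374. As shares of the cells' UMIs the levels differed: col10a1a stood at 11791 and 10944.5 CPM with epidermis genes, against 39786 and 48220.5 CPM without, and enam at 3599 and 3775 CPM, against 17184 and 20048 CPM. With the 33 cells left out of the kept cells, osteoblasts were 0.642% and 0.638%, and 105 genes were enriched, all 65 among them. The part of doublets in this split was not tested: an automatic doublet threshold marked 0 cells, and removing the cells of highest doublet score took 0 and 4 osteoblasts with epidermis genes and 1 and 1 without. Median doublet scores were 0.0943 and 0.0906 in osteoblasts with epidermis genes, against 0.0643 and 0.0645 in those without and 0.0375 and 0.0354 in the other kept cells.

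Clustered on their own, the osteoblasts fell into 3 clusters, each with cells of both libraries. The clusters were made from these same genes, so their levels are a description. Cluster 0 held 34 cells, 33 of them those with epidermis genes, and was led by keratin genes krt91 and krt5. Cluster 1 held 47 cells, 20 of library 1 and 27 of library 2. By fold it was led by the skeletal muscle marker actc1b, with 52.4 and 570 CPM by library, against 20.8 and 47.6 CPM. A UMI of actc1b was in fewer of its cells, 31.9% against 44.6% of the other osteoblasts. Enam came second. Cluster 1 had the highest levels of these bone genes: 66893 CPM of col10a1a, 31811 CPM of enam, 4784 CPM of ifitm5 and 1110 CPM of panx3. Cluster 2 held 40 cells, 17 and 23 by library, with 29588 CPM of col10a1a and 8578 CPM of enam. It was led by crip1, with 806 and 645 CPM by library, against 92.1 and 36.0 CPM in the other osteoblasts. Crip1 had a UMI in 37.5% of cluster 2, against 27.2% of the other osteoblasts. Next came c1qtnf5, with 109 and 143 CPM, against 4.06 and 6.42 CPM. The homeobox gene dlx4a was sixth by fold, with a wide gap in library 1 (267 CPM, against 8.13) and a narrower one in library 2 (71.3 CPM, against 30.8). Pdgfra, the second Pdgf receptor gene, had a UMI in 60.0% of cluster 2, against 14.9% of cluster 1, and sp7 in 42.5%, against 25.5%. At least 5 of 18 cell division genes were found in 12 cells of cluster 2, 0 of cluster 1 and 19 of cluster 0. Median depth was 30122.5, 6815 and 10410 UMIs in clusters 0, 1 and 2. At a finer resolution, 7 cells (1 of library 1 and 6 of library 2) formed a cluster of their own. All 7 had a UMI of the division gene mki67, and col10a1a stood at 35835 CPM in their summed counts. This sum hides differences between cells: the osteoblast with the most mki67 UMIs (19, library 2) had 1 UMI of col10a1a and 0 of ifitm5. Over all osteoblasts, at least 5 of 18 cell division genes were found in 11 of 51 and 20 of 70 cells, and in 3 of 38 and 9 of 50 of those without epidermis genes.

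**Figure D4:**
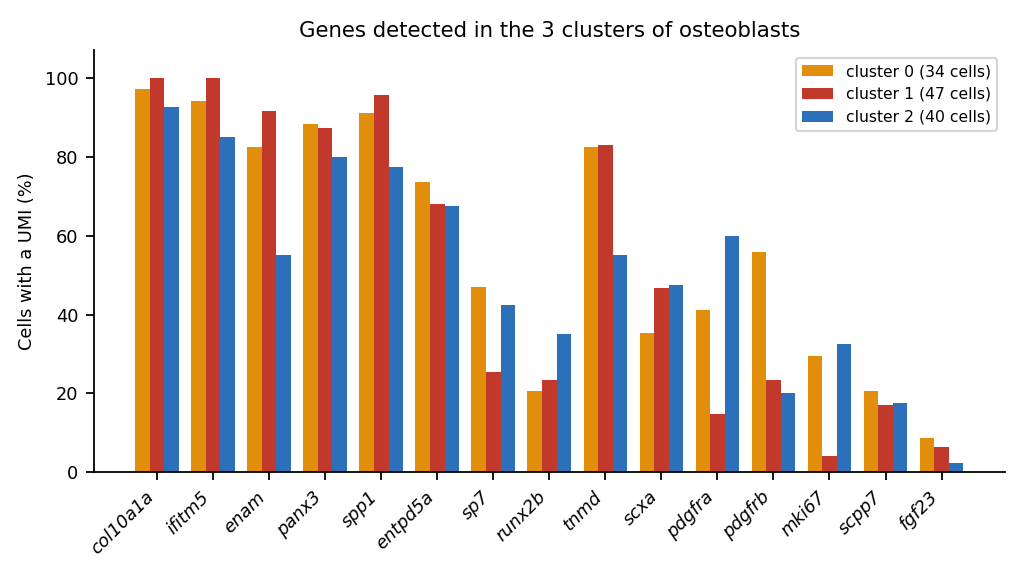
Percent of cells with a UMI of each gene in the 3 clusters of osteoblasts (bars, both libraries together; axis from 0). Col10a1a and ifitm5 are found in most cells of every cluster, and pdgfra in 60.0% of cluster 2 against 14.9% of cluster 1. Mki67 is found in 29.4% of cluster 0, 4.26% of cluster 1 and 32.5% of cluster 2. Shares also follow depth, which is highest in cluster 0 at a median of 30122.5 UMIs.

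Hox genes mark positions along the trunk and are silent in much of the head. A UMI of any of 49 hox genes was in 39.2% and 41.4% of osteoblasts, against 51.0% and 51.0% of the other cells, and they summed to 89.7 and 80.4 CPM, against 226 and 225 CPM. Osteoblasts without epidermis genes had 175 CPM in library 1 and 72.1 CPM in library 2, so the libraries differed in summed level. The share of these cells with a hox UMI was close, at 28.9% and 30%. It was 28.8% and 23% in chondrocytes, and 53% and 61.2% in tenocytes. Such shares also follow depth, which differed. Median depth was 6550.5 and 7887 UMIs in osteoblasts without epidermis genes, against 10346 and 10671.5 in chondrocytes and 9671 and 10173.5 in tenocytes. In summed level, chondrocytes had 55.2 and 49.5 CPM, and tenocytes 178 and 208 CPM.

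The bulk libraries do not separate cell types. A lower value of an osteoblast gene can come from fewer osteoblasts, from less RNA per cell or from other sorted cells. These sources cannot be told apart. Of the UMIs in kept cells, osteoblasts held 98.9% and 98.7% for col10a1a. They held 7.4% and 8.49% for btbd6a, and 16.8% and 14.4% for inhbb. The um148 libraries took no part in choosing the cells. Of the 65 enriched genes, 62 are in the authors' deposited table of um148 over wild-type, and 7 of these had an adjusted p under 0.05, all lower in um148. That is 11.3% of the 62 called lower, where 5.13% of all 16853 genes with an adjusted p were called lower, 6.18% higher and 11.3% either way. Of the 62, 51 had a negative log2 fold change in the authors' deposited table. Over all 17540 genes, 8524 (48.6%) had one. The median was -0.38 over the 62 genes, against 0.02 over all 17540. Set against the wild-type mean that the authors' fold change implies, the median of the 62 genes was -0.39, -0.42 and -0.56 in um148 libraries 1, 2 and 3 (log2), against -0.01, -0.04 and -0.04 over all genes. These 3 values share 1 wild-type mean derived from the fold change itself. Their shared sign is therefore no separate support, and they hold no wild-type spread. With an adjusted p under 0.01 in the authors' deposited table, 3 of the 62 were called, each lower, where 5.84% of all genes were called either way and 2.5% lower. At 0.05, 0 of the 62 were called higher. By unadjusted p under 0.05 in the authors' deposited table, 17 of the 62 were lower and 1 higher. Over all 17540 genes, 1964 were lower and 2262 higher by that measure.

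Rule genes gave 3 of the 7 calls. Spp1 had 277, 458 and 167 normalized counts in the um148 libraries (301 ± 147, SD, n = 3). The authors' deposited table gives it a log2 fold change of -2.32 with an adjusted p of 0.000177. Col10a1a had 9517, 10235.5 and 9239 normalized counts in um148, with a spread of 514 (SD) around 9664. Its log2 fold change in the authors' deposited table was -1.09 with an adjusted p of 0.00240. Ifitm5 had 473, 400.4 and 332 normalized counts in um148, and -0.99 with an adjusted p of 0.0187 in the authors' deposited table. No other rule gene passed the threshold. In the authors' deposited table sp7 had a log2 fold change of -0.09 (adjusted p 0.921) and entpd5a -0.28 (0.738). Runx2b, which was not among the 62 genes, was not called either, and its fold change is not given here.

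The other 4 called genes have uncertain or general roles. In the authors' deposited table si:dkey-32e6.6 had a log2 fold change of -1.50 (adjusted p 0.0191), si:ch211-170d8.8 had -1.47 (0.00179), si:ch211-106n13.3 had -1.21 (0.0115) and btbd6a, a BTB-domain gene, had -0.94 (0.0300). Si:ch211-106n13.3 had 475, 611 and 487 normalized counts in the um148 libraries. Several leading matrix and phosphate genes were lower in sign but above the threshold in the authors' deposited table. Enam had 2412, 1871 and 1716 normalized counts in um148 and a log2 fold change of -0.94 (adjusted p 0.0816). Scpp1 had 86.8, 56.9 and 55.5 normalized counts and -1.24 (0.0735), and phex had 589, 1223 and 620.0 and -0.93 (0.0756) in the authors' deposited table. Others lay near 0: col5a2b had a log2 fold change of 0.10 (0.921), tmem119a -0.02 (0.982) and phospho1 -0.17 (0.839) in the authors' deposited table. The highest of the 62 was inhbb, a subunit gene of activin and inhibin, at 0.97 (0.0572).

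**Figure D5:**
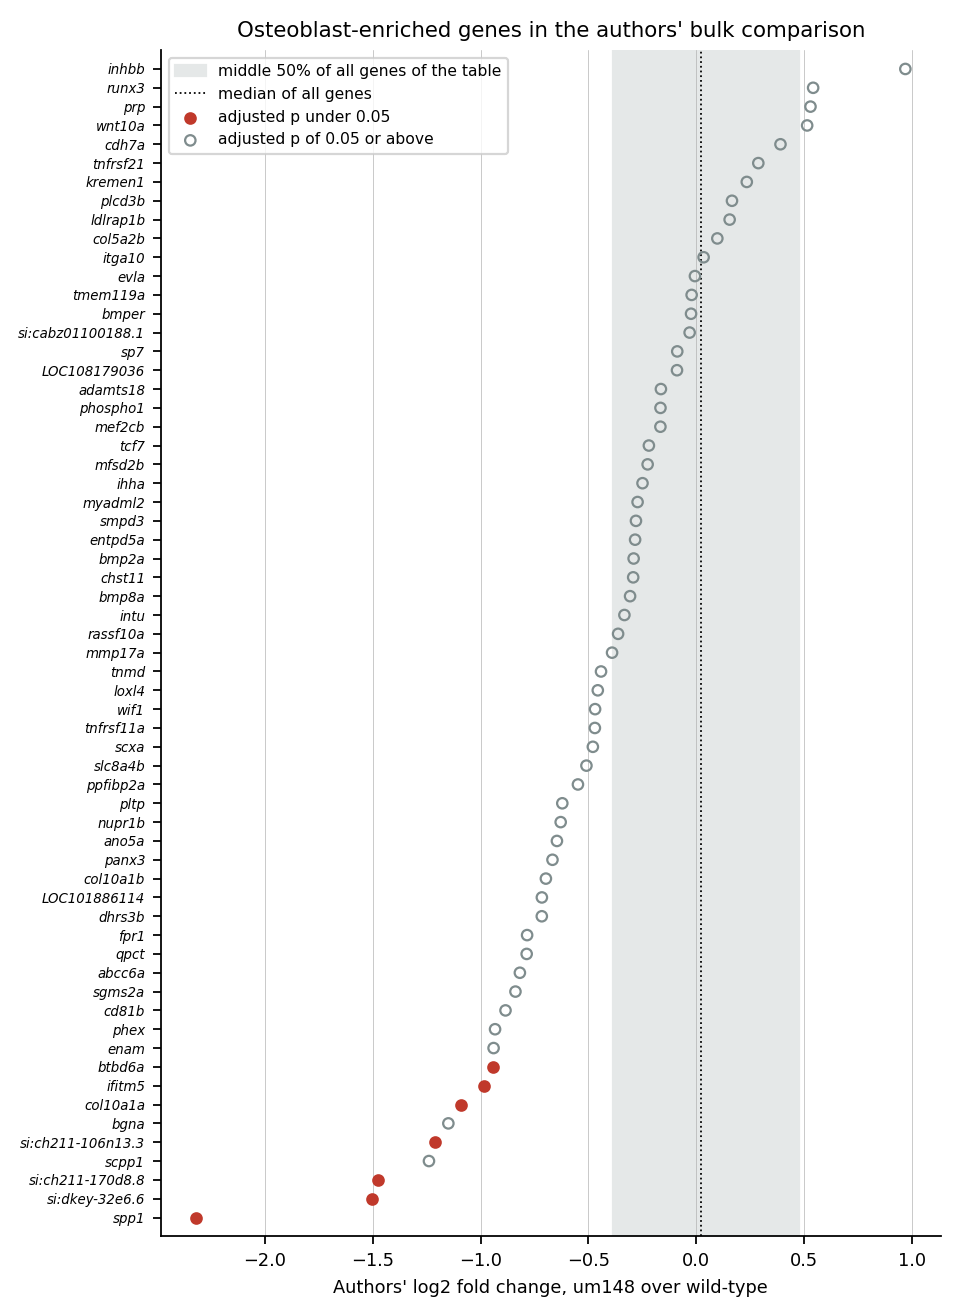
Log2 fold change of um148 over wild-type in the authors' deposited table for the 62 osteoblast-enriched genes it holds, in descending order. Red points have an adjusted p under 0.05 (7 genes, all at -0.94 or lower) and open points do not; the dotted line is the median of all 17540 genes at 0.02 and the grey band runs from their lower to their upper quartile.

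The listed bone genes were called in both directions, and the division genes only as lower. Of 3 osteoclast and macrophage genes with an adjusted p, 0 were called. Over the 8 lists, 243 genes had an adjusted p in the authors' deposited table and 39 were called, 21 lower and 18 higher, where 5.13% of all genes were called lower, 6.18% higher and 11.3% either way. The mineralization list had 2 lower and 2 higher of 23, the collagen list 1 of 23 (col27a1a, higher), the noncollagenous matrix list 1 lower and 3 higher of 24, the collagen folding list 3 lower and 4 higher of 49 and the transcription factor list 2 lower and 1 higher of 40. The signalling list had 5 lower and 7 higher of 64. Pdgfrb itself was among the lower ones, with 4852, 5357 and 3845 normalized counts in um148 and a log2 fold change of -1.21 (adjusted p 0.00140) in the authors' deposited table. Of 18 cell division genes 8 were called, each lower, with a median log2 fold change of -0.89 in the authors' deposited table.

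Marker lists of the cell types are given beside these values, and their part in them was not tested. Of all genes with an adjusted p in the authors' deposited table, 5.13% were called lower, 6.18% higher and 11.3% either way. The 6 osteoblast markers had a median log2 fold change of -0.63 in the authors' deposited table, with 3 called lower. They summed to between 10899 and 11860 normalized counts in the um148 libraries, against 23933 in the implied wild-type mean. Col10a1a alone had between 9239 and 10235.5 of these um148 counts, so the sum mainly followed that gene. The 9 epidermis markers had a median of 0.91, with 1 (epcam) called lower, and summed to between 35191 and 62830 in um148, against 30061 in the implied wild-type mean. The 17 chondrocyte markers in the table had a median of 0.26, with 1 (acanb) called higher, and summed to between 618009 and 1120600 in um148, against 630695. The 11 tenocyte markers had a median of 0.36 and summed to between 69350 and 106663 in um148, against 81200.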

How the data were processed

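Cells positive for a pdgfrb reporter were measured in 2 single-cell and 3 um148 bulk libraries. For the single-cell libraries the authors deposited UMI counts of called barcodes for 36351 genes (10x 3′ v3 kit per the labels; Cell Ranger 3.1.0 per the submitters' processing notes). The submitters' processing notes also name CASAVA 1.8.2, STAR, RSEM, DESeq2 and the genome build GRCz11, with no role given. The bulk libraries come in 1 table. Its um148 columns as deposited hold a signal (read counts divided by 1 size factor per library), and its comparison columns hold a log2 fold change, the same fold on the linear scale (a ratio), a test statistic (score), p-values before and after adjustment, and −log10 values, per the file headers. The fold change was read as um148 over wild-type, since that implies a wild-type total of 20284258, near the um148 mean of 19212955, and the other direction implies 91949403. For 687 of 17540 genes the table gives no adjusted p. The 3 columns of samples outside the series were not used.

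Libraries held 70247500 and 77896721 UMIs in 12121 and 10182 called barcodes, of which 49.0% and 77.1% were kept. Counts were summed per library over osteoblasts and over other cells and scaled to CPM; a sum under 3 was set to 3 in folds. Cells are not replicates and the rule used the same transcripts, so no p-value was computed. No doublets were removed. Shares after thinning to 2000 UMIs, other thresholds and other cell sets were alternatives. Clusters used log CPM, principal components and a Leiden graph (Scanpy 1.11.5). Where a symbol has several identifiers (lrp5, col27a1a) the first in the files was used. Genes named are the rule genes, the 25 other enriched genes of highest smaller fold, enriched genes with an adjusted p under 0.05, pdgfrb, and listed genes detected in 5% of osteoblasts; names outside this were chosen after their values were seen. The cells, gene lists and marker lists were chosen with earlier results of these data known.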

Additional observations from a re-analysis of the deposited data

Results flagged for a closer look

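Barcodes removed by the filters on genes and mitochondrial share enter no comparison, yet they held UMIs of the 7 osteoblast markers. In library 1 there were 3125 such UMIs in 6186 removed barcodes, or 178 CPM. All kept cells had 434 CPM, and the kept cells that were not osteoblasts had 14.03 CPM. In library 2 there were 182 UMIs in 2331 removed barcodes, or 41.6 CPM, against 463 CPM in all kept cells and 21.7 CPM without the osteoblasts. Col10a1a made up 2681 and 116 of the UMIs in removed barcodes. In each library 1 removed barcode would have met the osteoblast rule.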

How the results depend on the processing

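The osteoblast share of 0.875% was 1.40% with 2 of 7 markers, 0.647% with 4, 0.814% with 0 UMIs of matn1, 0.797% with a lower and 0.972% with a higher minimum of genes per cell, 1.02% with at most 5% and 0.696% with at most 20% mitochondrial UMIs, 0.591% after thinning to 2000 UMIs, and 0.640% without osteoblasts with epidermis genes. Single libraries gave 0.859% to 0.892%. The 65 enriched genes became 227 at 2-fold, 100 with no minimum level and 105 without osteoblasts with epidermis genes (chosen after seeing the data), and 78 to 86 from 1 library. The 25 leading enriched genes outside the rule remained enriched with 4 markers, with doublets removed, without osteoblasts with epidermis genes and with equal cell weights (chosen after seeing the data). They also remained enriched in each library alone, but the definition fixed this, since an enriched gene had to pass in both libraries. Of the 62 enriched genes in the authors' comparison, 7 were lower and 0 higher, where 5.13% of all genes were called lower and 6.18% higher. An adjusted p under 0.01 gave 3 lower, where 2.5% of all genes were lower. The 2-fold list of 222 genes gave 22 lower and 7 higher with a median of -0.18, and the 8-fold list a median of -0.47. The list of 57 genes without rule genes gave 4 lower (chosen after seeing the data). The list of 101 genes made without osteoblasts with epidermis genes gave 10 lower and 3 higher (chosen after seeing the data). Lists of 1 library, with 74 and 82 genes, gave 2 and 1 higher, 8 and 8 lower and medians of -0.30 and -0.28. Leaving out each um148 library gave medians of -0.47 to -0.32 against an unchanged implied wild-type mean. That mean came from all 3 um148 libraries and the authors' fold change, so no fold change was refitted. The gene lists had 23 calls of 243 genes at 0.01, where 5.84% of all genes were called. Causes were not tested. No paired analysis was possible because the 2 kinds of library share no animals and no test was fitted between groups. Single-cell depth limits genes of a few UMIs, such as sp7 and runx2b.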
